A study of Homo sapiens with 60 samples.

Results

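Lysosomal enzymes leave the Golgi with a mannose 6-phosphate (M6P) tag, and 9 genes that make that tag or sort lysosomal proteins are described here. They were chosen by name and function, with earlier results of these data known. The 9 comprise the tagging genes GNPTAB, GNPTG and NAGPA, the receptor genes M6PR, IGF2R and SORT1, and the adaptor genes GGA1, GGA2 and GGA3. All 9 were among the 42141 genes of the table and all 9 were among the 14692 genes tested, those with at least 1 CPM (count scaled to a library total of 1000000) in 3 or more of 15 libraries. Poly(A) RNA was sequenced from 5 lines of HEK293-EBNA1-6E cells, a derivative of the human embryonic kidney line HEK293 that carries the EBNA1 protein, after 48 hr in culture with no drug. The lines were the unedited parent (WT) and CRISPR/Cas9 knockouts of ALG6 alone (ALG6-/-), of ALG6 with UGGT1 (ALG6/UGGT1-/-), of ALG6 with UGGT2 (ALG6/UGGT2-/-) and of all 3 genes (ALG6/UGGT1/UGGT2-/-), with 3 biological replicates each. All 4 knockout lines lack ALG6, which places the first glucose on the N-glycan precursor, and 3 of them also lack 1 or both of UGGT1 and UGGT2, the enzymes that return a glucose to glycoproteins that are not yet folded. Each knockout line was grown from a single-cell colony and each genotype had 1 line, so genotype and clone cannot be told apart.

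The tag is built on the N-glycans of lysosomal enzymes in a pair of steps. In the cis-Golgi, GlcNAc-1-phosphotransferase, made of alpha and beta subunits from GNPTAB and the gamma subunit from GNPTG, adds GlcNAc-phosphate to mannose, and in the trans-Golgi network the uncovering enzyme NAGPA removes the GlcNAc and exposes M6P. The cation-dependent receptor (M6PR) and the large cation-independent receptor (IGF2R, which also binds insulin-like growth factor 2) bind the exposed tag, while sortilin (SORT1) carries some lysosomal proteins, prosaposin among them, without it. The GGA proteins are monomeric clathrin adaptors that bind the tails of these receptors at the trans-Golgi network.

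The promoters of IGF2R, NAGPA and GNPTG are shown because they share a motif, and that of GGA3 because this gene had the smallest p of the 9 in the test over all lines and lacks the motif. Each is the 250 bases before the RefSeq start on GRCh38.p14, and the capitals mark TCACGTGA, the CLEAR element bound by TFEB, a transcription factor of lysosomal genes. The element reads the same on both strands and contains the E-box CACGTG.
IGF2R: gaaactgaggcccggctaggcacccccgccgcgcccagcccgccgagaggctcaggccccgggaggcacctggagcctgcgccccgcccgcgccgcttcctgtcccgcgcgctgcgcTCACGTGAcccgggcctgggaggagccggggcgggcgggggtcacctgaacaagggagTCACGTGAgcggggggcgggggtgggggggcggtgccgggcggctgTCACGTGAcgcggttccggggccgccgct
NAGPA: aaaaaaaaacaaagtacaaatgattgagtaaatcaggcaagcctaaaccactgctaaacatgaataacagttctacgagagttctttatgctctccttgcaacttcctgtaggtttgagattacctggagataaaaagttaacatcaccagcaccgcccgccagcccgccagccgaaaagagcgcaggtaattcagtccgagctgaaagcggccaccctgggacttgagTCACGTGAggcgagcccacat
GNPTG: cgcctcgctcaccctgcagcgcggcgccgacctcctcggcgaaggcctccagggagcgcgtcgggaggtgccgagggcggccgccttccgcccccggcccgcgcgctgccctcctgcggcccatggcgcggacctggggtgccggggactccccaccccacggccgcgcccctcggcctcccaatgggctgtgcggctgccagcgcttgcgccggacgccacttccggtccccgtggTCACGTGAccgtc
GGA3: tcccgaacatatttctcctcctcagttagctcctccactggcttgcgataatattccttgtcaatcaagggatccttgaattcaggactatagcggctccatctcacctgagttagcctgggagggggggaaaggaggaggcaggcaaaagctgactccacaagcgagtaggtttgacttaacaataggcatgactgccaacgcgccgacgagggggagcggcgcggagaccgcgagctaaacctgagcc
These windows lie at chr6:159968832-159969081 (plus strand, IGF2R), chr16:5033936-5034185 (minus strand, NAGPA), chr16:1351681-1351930 (plus strand, GNPTG) and chr17:75262364-75262613 (minus strand, GGA3). RefSeq promoters were matched for 8 of the 9 genes, 12 promoters in all, and GGA2 had no entry. IGF2R held 3 copies, 133, 75 and 29 bases before its start, NAGPA held 1 copy 21 bases before, and GNPTG held 1 copy 13 bases before. One of the M6PR promoters held the shorter E-box CACGTG, 80 bases before its start. Of the 15374 promoters of tested genes 1.39% held TCACGTGA and 4 held 3 or more copies, while 8.2% held CACGTG. The cyclic AMP response element TGACGTCA, the unfolded protein response element TGACGTGG and the ER stress response element ERSE, all searched on both strands, were in none of the members' windows and in 2.39%, 0.729% and 0.117% of promoters of tested genes. A match is a string of letters and was not tested as a binding site.

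Some facts about the libraries touch every result. ALG6 transcript was at 12.7 to 15.6 CPM in WT and at 1.03 to 5.87 CPM in the knockouts. UGGT1 was at 18.0 to 33.1 CPM in the lines edited at UGGT1, at 43.1 to 79.8 CPM in WT and at 59.5 to 77.6 CPM in ALG6/UGGT2-/-. In ALG6-/-, where UGGT1 was not edited, it was at 83.9, 13.1 and 34.4 CPM, so that replicate 2 lay below every library edited at UGGT1. UGGT2 in the lines edited at UGGT2 (11.2 to 17.8 CPM) overlapped WT (12.8 to 22.8 CPM). An edit need not lower the transcript. Of the HEK293 markers PAX2, NEFL and LIN28B were tested, PAX8 and NEFM were below the filter, and 9 of 10 markers of other cell types reached at most 0.390 CPM, the exception being COL1A1. The 3 ALG6-/- libraries stood apart: their median ratios to the average library were 0.915, 0.672 and 0.793, against 0.949 in WT replicate 3 and 1.00 to 1.17 in the other 11 libraries. All genes tested had a median log2 fold change of -0.44 in ALG6-/- against WT, and of 0.52 in ALG6/UGGT1-/-, 0.46 in ALG6/UGGT2-/- and 0.36 in ALG6/UGGT1/UGGT2-/-, each against ALG6-/-. Fold changes in ALG6-/- against WT also ran with transcript length (Spearman rho -0.32 across 12746 genes, which are not independent) and with GC content (rho 0.41). The members differ widely in both, from 1975 bases (GNPTG) to 14061 bases (IGF2R) and from 43.3% GC (GNPTAB) to 63.0% GC (NAGPA). What part these properties have in a result was not tested. Values corrected for both, called length- and GC-corrected, are given for most of the member results that they change.

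GGA3 and NAGPA differed most between the lines, in opposite directions. In ALG6-/-, GGA3 fell to 0.44 times and NAGPA rose to 2.04 times the WT level, and in each line that had also lost UGGT1 or UGGT2 both differed from ALG6-/- in the direction of WT. In ALG6/UGGT1-/- NAGPA was called below WT and GGA3 above it, calls that were lost with only the lines compared. In ALG6/UGGT1/UGGT2-/-, M6PR rose and GGA2 fell against WT and against every other line. With median ratio rescaling the M6PR call remained against ALG6/UGGT1-/- and the GGA2 call against ALG6-/-, and the others of these were lost. GNPTAB passed no test on the values as deposited with all 15 libraries. A gene was called where the adjusted p (limma, Benjamini-Hochberg over all 14692 genes) was under 0.05. Against WT, 3 of the 9 genes were called in ALG6-/-, where 60.8% of all genes were called, 2 in ALG6/UGGT1-/- (24.1% of all genes), 1 in ALG6/UGGT2-/- (13.9%) and 4 in ALG6/UGGT1/UGGT2-/- (35.6%). Against ALG6-/-, 7 were called in ALG6/UGGT1-/- (73.5% of all genes), 6 in ALG6/UGGT2-/- (67.4%) and 6 in ALG6/UGGT1/UGGT2-/- (61.2%). The line without both UGGT genes differed from ALG6/UGGT1-/- in 4 (46% of all genes) and from ALG6/UGGT2-/- in 5 (35.9%). A test of any difference over the 5 lines called 8 of 9, and 81.2% of all genes. These counts stand beside the background and are not read as a property of the pathway. Replicates of 2 lines that did not overlap, described below for single genes, were also common. Among all genes the share ran from 31.5% (ALG6/UGGT2-/- against WT) to 69% (ALG6/UGGT1-/- against ALG6-/-).

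**Figure D1:**
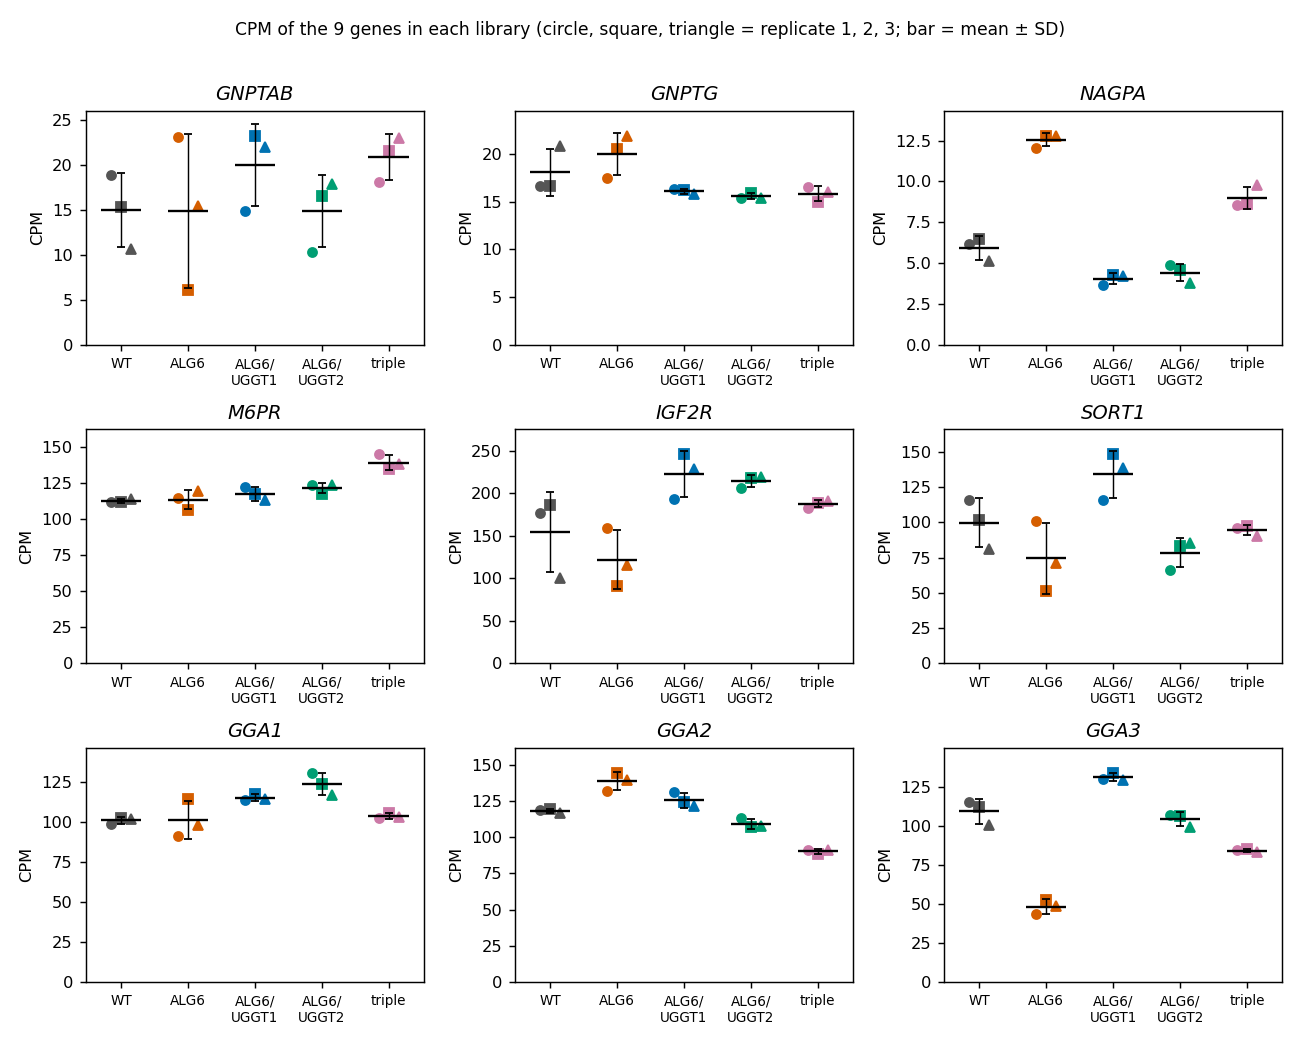
CPM (y axis, from 0) of each of the 9 genes in the 15 libraries, by line (x axis, where ALG6, ALG6/UGGT1, ALG6/UGGT2 and triple stand for the 4 knockout lines), with circles, squares and triangles for replicates 1, 2 and 3 and bars for mean and SD (n = 3). GGA3 is lowest and NAGPA highest in ALG6-/- without overlap, while the WT and ALG6-/- replicates of GNPTAB, IGF2R and SORT1 are spread widely.

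Per kilobase of transcript, NAGPA, the uncovering enzyme, and GNPTAB had the lowest levels of the 9, at 2.69 and 2.62 CPM in WT and at 5.69 and 2.61 CPM in ALG6-/-. NAGPA was at 6.15, 6.50 and 5.11 CPM in WT replicates 1 to 3 and at 12.1, 12.8 and 12.8 CPM in ALG6-/-. It was at 3.65, 4.25 and 4.22 CPM in ALG6/UGGT1-/-, at 4.85, 4.59 and 3.81 CPM in ALG6/UGGT2-/- and at 8.53, 8.64 and 9.75 CPM in ALG6/UGGT1/UGGT2-/-. All ALG6-/- libraries lay above all others, and all ALG6/UGGT1/UGGT2-/- libraries lay above WT and both lines with 1 UGGT gene left. At 23.6 to 27.2 reads per CPM, the lowest of these values stands for about 87 reads and the highest for about 309. From WT to ALG6-/- NAGPA rose by 1.03 in log2 units (SE 0.12, adjusted p = 1.5e-05), which is 1.47 above the median of all genes. It fell to 0.35 times the ALG6-/- level in ALG6/UGGT1-/- (log2 fold change -1.53, adjusted p = 2.8e-07) and to 0.38 times in ALG6/UGGT2-/- (-1.41, adjusted p = 7.0e-07). Against ALG6/UGGT1-/-, the line without both UGGT genes had 2.09 times as much (log2 fold change 1.06, adjusted p = 1.3e-05). The order of the line means was ALG6-/- at 12.5 ± 0.400 CPM (SD, n = 3), ALG6/UGGT1/UGGT2-/- at 8.97 ± 0.676, WT at 5.92 ± 0.722, ALG6/UGGT2-/- at 4.41 ± 0.543 and ALG6/UGGT1-/- at 4.04 ± 0.336 CPM. The first 3 differed from their neighbours, WT against ALG6/UGGT2-/- did not pass (adjusted p = 0.051), and the lowest pair did not (adjusted p = 0.59). In ALG6/UGGT1-/- NAGPA was below WT, at 0.71 times (log2 fold change -0.50, adjusted p = 0.0093). That call was lost with only the lines compared (adjusted p = 0.058). Length- and GC-corrected, NAGPA in ALG6-/- against WT was 1.07 (adjusted p = 3.8e-06). The NAGPA locus (chr16:5024844-5034141, minus strand, GRCh38) overlaps ALG1 on the other strand, whose means were 28.9 CPM in WT and 19.5 CPM in ALG6-/-. The library kit keeps strand, but the strand setting of the counting is not given in the sources used here.

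GNPTG, the gamma subunit of the phosphotransferase, lay between 14.98 and 21.9 CPM in all 15 libraries. It was at 16.7, 16.6 and 20.9 CPM in WT and at 17.5, 20.5 and 21.9 CPM in ALG6-/-, which overlapped (adjusted p = 0.25). It was at 16.3, 16.2 and 15.8 CPM in ALG6/UGGT1-/-, at 15.4, 15.9 and 15.4 CPM in ALG6/UGGT2-/- and at 16.5, 14.98 and 16.0 CPM in ALG6/UGGT1/UGGT2-/-. These 9 libraries lay below all WT and ALG6-/- libraries, though by as little as 16.54 against 16.61 CPM. Against ALG6-/-, GNPTG fell by 0.30 in log2 units in ALG6/UGGT1-/- (SE 0.11, adjusted p = 0.023), by 0.34 in ALG6/UGGT2-/- (adjusted p = 0.013) and by 0.32 in ALG6/UGGT1/UGGT2-/- (adjusted p = 0.021). These calls were lost in fits of only the lines compared (adjusted p = 0.090, 0.058 and 0.076). The first was also lost without any 1 of ALG6-/- replicates 2 and 3 and ALG6/UGGT1-/- replicates 2 and 3 (adjusted p up to 0.098), the second without ALG6-/- replicate 3 (0.057), and the last without any 1 of ALG6-/- replicates 2 and 3 and ALG6/UGGT1/UGGT2-/- replicate 2 (up to 0.086) and with the length and GC correction (0.059). No comparison with WT passed as deposited, while ALG6-/- against WT passed with median ratio rescaling (0.58, adjusted p = 0.016) and without WT replicate 3 (0.25, adjusted p = 0.043).

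GNPTAB, the precursor of the catalytic alpha and beta subunits, showed, as deposited, spread within lines rather than between them. It was at 18.9, 15.4 and 10.7 CPM in WT and at 23.1, 6.10 and 15.5 CPM in ALG6-/-. It was at 14.9, 23.3 and 22.0 CPM in ALG6/UGGT1-/-, at 10.35, 16.6 and 17.9 CPM in ALG6/UGGT2-/- and at 18.1, 21.6 and 23.1 CPM in ALG6/UGGT1/UGGT2-/-. The highest and the lowest of the 3 ALG6-/- values nearly span the whole set of 15. The test over the 5 lines gave an adjusted p of 0.42, and no pair of neighbours in the order of the line means differed. Its SE was 0.39 in log2 units in every comparison of 2 lines (95% interval of the estimate ± 0.85). Changes below about that interval were not detectable. Without ALG6-/- replicate 1, GNPTAB was higher in ALG6/UGGT1-/- than in ALG6-/- (0.97, adjusted p = 0.028). Length- and GC-corrected, the SE was 0.13 and GNPTAB was higher in ALG6-/- than in WT by 0.63 (adjusted p = 0.00099), the opposite sign of the uncorrected value, -0.16. Rescaling each library by its median ratio gave 0.27 (adjusted p = 0.45). With the correction GNPTAB was also lower than in ALG6-/- in ALG6/UGGT1-/- (-0.49, adjusted p = 0.0049) and in ALG6/UGGT2-/- (-0.75, adjusted p = 0.00020). Corrected, it was higher in ALG6/UGGT1/UGGT2-/- than in WT (0.41, adjusted p = 0.020) and than in ALG6/UGGT2-/- (0.53, adjusted p = 0.0044). All 3 tagging genes then had the same signs, positive in ALG6-/- against WT (GNPTG at 0.21, adjusted p = 0.052) and negative in each other knockout line against ALG6-/-, whereas as deposited GNPTAB had the opposite signs.

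IGF2R, the cation-independent receptor, had its highest means in the lines that lacked ALG6 and 1 UGGT gene. It was at 177, 186 and 99.9 CPM in WT and at 159, 90.4 and 116 CPM in ALG6-/-. It was at 193, 246 and 228 CPM in ALG6/UGGT1-/-, at 207, 219 and 219 CPM in ALG6/UGGT2-/- and at 183, 189 and 191 CPM in ALG6/UGGT1/UGGT2-/-. WT replicate 3, the WT library with the lowest median ratio, lay inside the ALG6-/- range, and no ALG6-/- library reached the lowest value of the 3 other knockout lines. Against ALG6-/-, IGF2R rose to 1.86 times in ALG6/UGGT1-/- (log2 fold change 0.90, SE 0.22, adjusted p = 0.0032), to 1.81 times in ALG6/UGGT2-/- (adjusted p = 0.0049) and to 1.58 times in ALG6/UGGT1/UGGT2-/- (adjusted p = 0.023). Relative to the median of all genes these were 0.38, 0.40 and 0.30 on the log2 scale. With the length and GC correction none of the 3 passed, and the values became 0.04 (adjusted p = 0.68), 0.07 (adjusted p = 0.51) and -0.21 (adjusted p = 0.052). Against WT no line passed, with log2 fold changes from -0.33 in ALG6-/- to 0.57 in ALG6/UGGT1-/- (adjusted p = 0.22 and 0.085). With the correction IGF2R passed against WT in ALG6-/- (0.36, adjusted p = 0.0025, the opposite sign), in ALG6/UGGT1-/- (0.40, adjusted p = 0.0027) and in ALG6/UGGT2-/- (0.43, adjusted p = 0.0028). Corrected, it was lower in ALG6/UGGT1/UGGT2-/- than in ALG6/UGGT1-/- (-0.25, adjusted p = 0.024) and than in ALG6/UGGT2-/- (-0.27, adjusted p = 0.018). With median ratio rescaling the value in ALG6-/- against WT was 0.12 (adjusted p = 0.52), ALG6/UGGT1-/- against WT passed (0.51, adjusted p = 0.036) and ALG6/UGGT1/UGGT2-/- against ALG6-/- did not (0.27, adjusted p = 0.14). Without WT replicate 3 the fall in ALG6-/- against WT passed (-0.61, adjusted p = 0.011), as it did without ALG6-/- replicate 1, and the call in ALG6/UGGT1/UGGT2-/- against ALG6-/- was lost without any 1 of replicates 2 and 3 of either line (adjusted p up to 0.101). As deposited, no neighbours in the order of the 5 means differed.

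M6PR, the cation-dependent receptor, had 1 line apart as deposited. It was at 112, 112 and 114 CPM in WT and at 115, 106 and 119 CPM in ALG6-/-. It was at 123, 117 and 113 CPM in ALG6/UGGT1-/-, at 124, 117 and 123 CPM in ALG6/UGGT2-/- and at 145, 135 and 138 CPM in ALG6/UGGT1/UGGT2-/-. All 3 ALG6/UGGT1/UGGT2-/- libraries lay above the other 12. In that line M6PR rose to 1.24 times the WT level (log2 fold change 0.30, SE 0.059, adjusted p = 0.0014), to 1.23 times ALG6-/- (adjusted p = 0.0012), to 1.18 times ALG6/UGGT1-/- (adjusted p = 0.0048) and to 1.14 times ALG6/UGGT2-/- (adjusted p = 0.021). The other 4 means ran from 113 to 121 CPM, and no neighbours among them differed. Rescaled by median ratios, the value against WT was 0.37 (adjusted p = 0.051), and that against ALG6-/- changed sign to -0.09 (adjusted p = 0.57), also -0.12 (adjusted p = 0.42) with the length and GC correction. The call against ALG6/UGGT2-/- was lost with either (adjusted p = 0.14 and 0.067) and without ALG6/UGGT2-/- replicate 2 or ALG6/UGGT1/UGGT2-/- replicate 1 or 3. Both scalings also set ALG6-/- apart. There M6PR was above WT by 0.46 with median ratios (adjusted p = 0.0096) and by 0.47 corrected (adjusted p = 0.0049). Against ALG6-/- it was lower in ALG6/UGGT1-/- (-0.46 and -0.49, adjusted p = 0.0067 and 0.0033) and in ALG6/UGGT2-/- (-0.36 and -0.42, adjusted p = 0.027 and 0.0095).

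SORT1, the receptor that does not read the tag, was highest in ALG6/UGGT1-/-. It was at 116, 102 and 81.4 CPM in WT and at 101, 51.1 and 71.5 CPM in ALG6-/-. It was at 116, 148 and 139 CPM in ALG6/UGGT1-/-, at 66.5, 83.0 and 85.5 CPM in ALG6/UGGT2-/- and at 96.1, 97.1 and 90.4 CPM in ALG6/UGGT1/UGGT2-/-. ALG6/UGGT1-/- did not overlap with ALG6-/-, ALG6/UGGT2-/- or ALG6/UGGT1/UGGT2-/- and overlapped WT. It was above ALG6/UGGT2-/- by 0.77 in log2 units (adjusted p = 0.017), and by 0.68 length- and GC-corrected (adjusted p = 3.4e-05). ALG6/UGGT1/UGGT2-/- against ALG6/UGGT1-/- was -0.50 as deposited (adjusted p = 0.070). This passed with median ratio rescaling (-0.37, adjusted p = 0.039), the correction (-0.41, adjusted p = 0.00088) and only the lines compared (adjusted p = 0.0038). Of the 7 comparisons with WT or ALG6-/- only ALG6/UGGT1-/- against ALG6-/- passed, at 1.85 times (log2 fold change 0.89, SE 0.21, adjusted p = 0.0021), or 0.37 above the median of all genes. With the length and GC correction this value was 0.01 (adjusted p = 0.94), and other comparisons passed. Against ALG6-/-, SORT1 was then lower in ALG6/UGGT2-/- (-0.67, adjusted p = 1.1e-05) and in ALG6/UGGT1/UGGT2-/- (-0.41, adjusted p = 0.0011), both with the sign turned. Against WT it was higher in ALG6-/- (0.23, adjusted p = 0.030, sign turned) and ALG6/UGGT1-/- (0.24, adjusted p = 0.043) and lower in ALG6/UGGT2-/- (-0.44, adjusted p = 0.0021). Corrected, it was also higher in ALG6/UGGT1/UGGT2-/- than in ALG6/UGGT2-/- (0.27, adjusted p = 0.019). With median ratio rescaling ALG6/UGGT2-/- against ALG6-/- was -0.34 (adjusted p = 0.037). Without ALG6-/- replicate 1 the fall in ALG6-/- against WT passed (-0.70, adjusted p = 0.0044), as it did without WT replicate 3, and without ALG6-/- replicate 1 SORT1 was also higher in ALG6/UGGT1/UGGT2-/- than in ALG6-/- (0.64, adjusted p = 0.0074). Per kilobase of transcript in WT, M6PR was at 45.9 CPM, SORT1 at 14.3 CPM and IGF2R at 10.97 CPM.

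**Figure D2:**
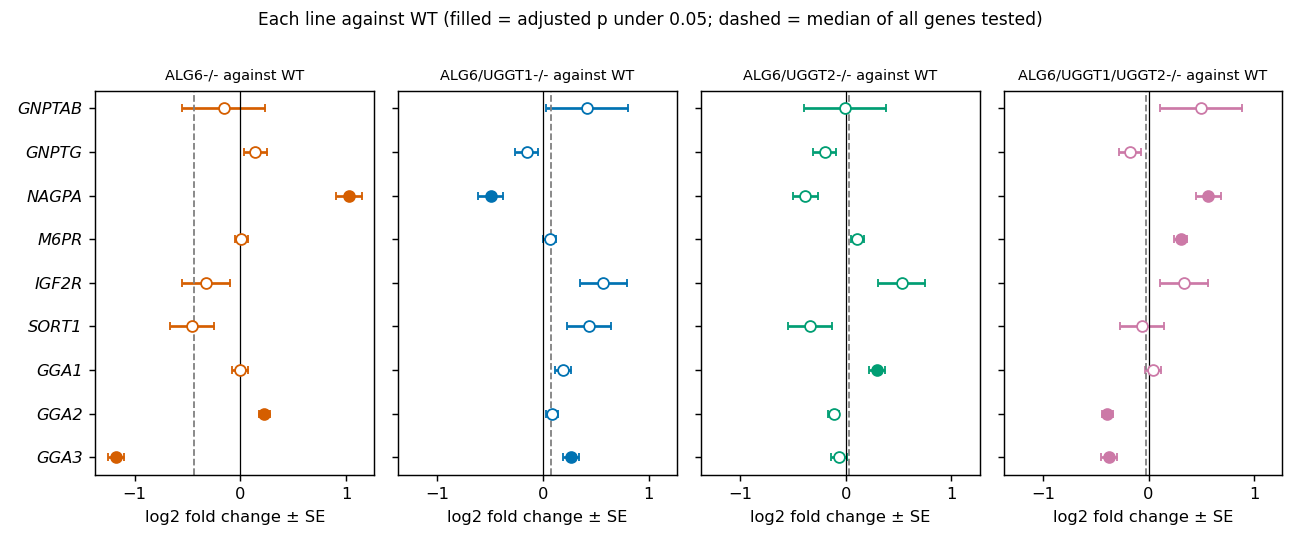
Log2 fold change (x axis, points with SE) of the 9 genes (y axis) in each knockout line against WT, filled where the adjusted p was under 0.05, with a dashed line at the median of all genes tested. In ALG6-/- that median is -0.44, GGA3 lies below it and the filled points of NAGPA and GGA2 lie above 0.

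GGA3 changed most of the 3 adaptors, and of the 9 genes it had the smallest p in the test over the 5 lines (adjusted p = 6.7e-08), while NAGPA had the larger range of line means in fold terms. It was at 115, 112 and 100 CPM in WT and at 43.3, 52.7 and 48.4 CPM in ALG6-/-. It was at 130, 134 and 129 CPM in ALG6/UGGT1-/-, at 107, 106 and 99.4 CPM in ALG6/UGGT2-/- and at 84.2, 85.0 and 83.1 CPM in ALG6/UGGT1/UGGT2-/-. All ALG6-/- libraries were lowest, all ALG6/UGGT1/UGGT2-/- libraries came next, and all ALG6/UGGT1-/- libraries were highest. From WT to ALG6-/- GGA3 fell by 1.18 in log2 units (SE 0.076, adjusted p = 1.4e-07), which is 0.74 below the median of all genes, with -1.24 to -1.10 when 1 library was left out. Against ALG6-/- it rose to 2.72 times in ALG6/UGGT1-/- (adjusted p = 1.2e-08), to 2.16 times in ALG6/UGGT2-/- (adjusted p = 1.2e-07) and to 1.75 times in ALG6/UGGT1/UGGT2-/- (adjusted p = 4.0e-06). Against WT it rose to 1.202 times in ALG6/UGGT1-/- (adjusted p = 0.024) and fell to 0.77 times in ALG6/UGGT1/UGGT2-/- (log2 fold change -0.37, adjusted p = 0.0020). Both calls were lost with median ratio rescaling (0.20 with adjusted p = 0.40, and -0.31 with adjusted p = 0.14). The first was also lost with only the lines compared (adjusted p = 0.068) and without WT replicate 3 or ALG6/UGGT1-/- replicate 2 or 3. In the order ALG6/UGGT1-/-, WT, ALG6/UGGT2-/-, ALG6/UGGT1/UGGT2-/-, ALG6-/-, only WT and ALG6/UGGT2-/- did not differ (adjusted p = 0.69). The call in ALG6/UGGT1/UGGT2-/- against ALG6/UGGT2-/- was lost with median ratio rescaling (-0.23, adjusted p = 0.28). The length- and GC-corrected value in ALG6-/- against WT was -0.94 (adjusted p = 3.1e-08). MRPS7, which overlaps the start of GGA3 (chr17:75236599-75262363, minus strand) on the other strand, had means of 121 CPM in WT and 85.3 CPM in ALG6-/-.

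GGA2 ran from its highest level in ALG6-/- to its lowest in the line without both UGGT genes. It was at 119, 120 and 117 CPM in WT and at 132, 145 and 140 CPM in ALG6-/-. It was at 131, 124 and 121 CPM in ALG6/UGGT1-/-, at 113, 107 and 108 CPM in ALG6/UGGT2-/- and at 91.5, 88.3 and 91.0 CPM in ALG6/UGGT1/UGGT2-/-. The ALG6-/- and ALG6/UGGT1/UGGT2-/- libraries overlapped with none of the others. GGA2 rose to 1.17 times WT in ALG6-/- (log2 fold change 0.23, SE 0.054, adjusted p = 0.0033) and fell to 0.76 times WT in ALG6/UGGT1/UGGT2-/- (-0.39, adjusted p = 0.00012), to 0.65 times ALG6-/- (adjusted p = 2.2e-06), to 0.72 times ALG6/UGGT1-/- (adjusted p = 1.6e-05) and to 0.83 times ALG6/UGGT2-/- (adjusted p = 0.0017). Against ALG6-/- it was also lower in ALG6/UGGT1-/- (-0.14, adjusted p = 0.030) and in ALG6/UGGT2-/- (-0.34, adjusted p = 0.00014). Median ratio rescaling took away the call against WT in the line without both UGGT genes (-0.33, adjusted p = 0.11), as did the length and GC correction (-0.45, adjusted p = 0.064). Both also took away the calls against ALG6/UGGT1-/- (adjusted p = 0.071 and 0.062) and ALG6/UGGT2-/- (adjusted p = 0.34 and 0.27), and the call against ALG6-/- remained. Corrected, GGA2 in ALG6-/- against WT was 0.75 (adjusted p = 0.0038), and the uncorrected call was lost with only the lines compared (adjusted p = 0.059). The call in ALG6/UGGT1-/- against ALG6-/- was lost with only the lines compared (adjusted p = 0.16) and without any 1 of replicates 2 and 3 of either line (adjusted p up to 0.109). EARS2 overlaps the start of GGA2 (chr16:23463542-23521995, minus strand) on the same strand, and its means were 74.8 CPM in WT, 60.1 CPM in ALG6-/- and 41.0 CPM in ALG6/UGGT1/UGGT2-/-.

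GGA1 was the adaptor with the smallest differences. It was at 98.6, 103 and 101 CPM in WT and at 90.8, 114 and 98.2 CPM in ALG6-/-. It was at 113, 117 and 114 CPM in ALG6/UGGT1-/-, at 130, 123 and 117 CPM in ALG6/UGGT2-/- and at 103, 105 and 103 CPM in ALG6/UGGT1/UGGT2-/-. The libraries of ALG6/UGGT1-/- and ALG6/UGGT2-/- lay above WT without overlap, as for 20.3% and 15.4% of all genes. In ALG6/UGGT1-/- against WT the test did not pass (adjusted p = 0.093). The 1 call against WT was in ALG6/UGGT2-/-, where GGA1 rose to 1.22 times (log2 fold change 0.29, SE 0.076, adjusted p = 0.023). That call was lost with median ratio rescaling (0.28, adjusted p = 0.41) and with only the lines compared (adjusted p = 0.066). It was also lost without WT replicate 1 or 2 or ALG6/UGGT2-/- replicate 1 or 2. Length- and GC-corrected, GGA1 was higher than WT in ALG6/UGGT2-/- (0.37, adjusted p = 4.9e-05), in ALG6/UGGT1-/- (0.29, adjusted p = 0.00021) and in ALG6/UGGT1/UGGT2-/- (0.14, adjusted p = 0.019). Corrected, it was lower in ALG6/UGGT1/UGGT2-/- than in ALG6/UGGT1-/- (-0.15, adjusted p = 0.0083). With median ratio rescaling it was higher than WT in ALG6-/- (0.44, adjusted p = 0.037). Against ALG6-/-, GGA1 was called higher in ALG6/UGGT1-/- (0.19, adjusted p = 0.036) and in ALG6/UGGT2-/- (0.29, adjusted p = 0.0044). Both calls were lost with only the lines compared (adjusted p = 0.15 and 0.056). The first was also lost with no filter (adjusted p = 0.052) and in 5 of 6 fits with 1 library left out (adjusted p up to 0.14). With median ratio rescaling both signs turned (-0.32 and -0.17, adjusted p = 0.10 and 0.40). Against ALG6/UGGT2-/- it was lower in ALG6/UGGT1/UGGT2-/- (-0.25, adjusted p = 0.020). This call was lost with the rescaling (adjusted p = 0.47) and in 4 of 6 fits with 1 library left out (adjusted p up to 0.077). Summed over the 3 adaptor genes, the level was 328 ± 8.6 CPM (SD, n = 3) in WT, 288 ± 22.6 in ALG6-/-, 372 ± 5.8 in ALG6/UGGT1-/-, 337 ± 13.4 in ALG6/UGGT2-/- and 278 ± 0.898 CPM in ALG6/UGGT1/UGGT2-/-. GGA3 made up 31.5 to 34.7% of that sum in WT and 16.2 to 16.9% in ALG6-/-, a share that does not depend on the scaling of a library.

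**Figure D3:**
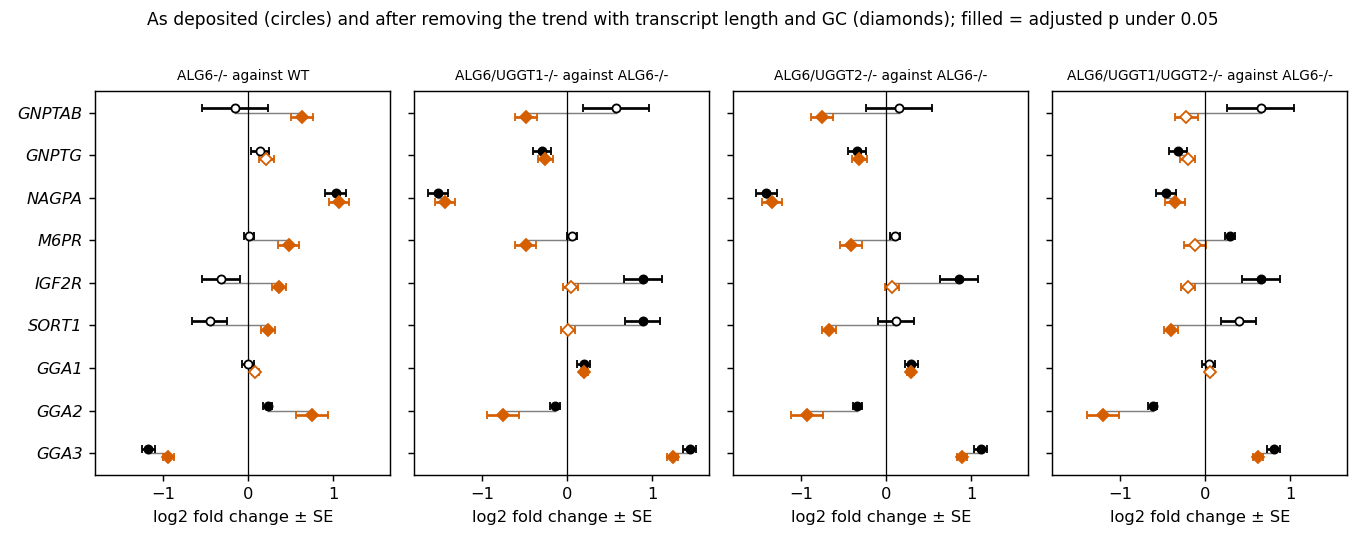
Log2 fold change (x axis, with SE) of the 9 genes (y axis) in the 4 comparisons that involve ALG6-/-, as deposited (circles) and after the trend with transcript length and GC content was removed from each library (diamonds), filled where the adjusted p was under 0.05. GGA3, NAGPA and GGA1 stay near their values and GGA2 moves away from 0, while GNPTAB, M6PR, IGF2R and SORT1 each cross or reach 0 in at least 1 comparison, as IGF2R does from 0.90 to 0.04 in ALG6/UGGT1-/- against ALG6-/-.

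The effect of losing UGGT2 was compared between the lines with and without UGGT1. In the presence of UGGT1 (ALG6/UGGT2-/- against ALG6-/-) NAGPA was lower by 1.41 and GGA3 higher by 1.11 on the log2 scale. In its absence (ALG6/UGGT1/UGGT2-/- against ALG6/UGGT1-/-) NAGPA was higher by 1.06 and GGA3 lower by 0.64. The differences between these effects were 2.48 (SE 0.17, adjusted p = 8.4e-08) for NAGPA and -1.75 (SE 0.11, adjusted p = 3.7e-08) for GGA3. IGF2R and GGA1 also passed, so that 4 of 9 were called beside 66.9% of all genes, whose median difference was -0.60. With the length and GC correction GNPTAB (1.02, adjusted p = 0.00026), GNPTG (0.37, adjusted p = 0.017) and M6PR (0.78, adjusted p = 0.0014) passed as well.

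Genes that act on the same route were counted from lists chosen by function. Of the 3 genes needed to mature the tagging enzymes, 1 was higher and 1 lower in ALG6-/- than in WT. Among all genes 15.1% were higher and 45.7% lower. FURIN, the protease that activates NAGPA, was at 233 CPM in WT and 320 CPM in ALG6-/- and rose by 0.45 on the log2 scale (adjusted p = 0.00023). MBTPS1, the site-1 protease that cleaves the GNPTAB precursor, was at 110 CPM in WT and 151 CPM in ALG6/UGGT1/UGGT2-/- and rose by 0.46 (adjusted p = 0.00028). Against WT it did not pass in ALG6-/- (0.063, adjusted p = 0.45) and was lower in ALG6/UGGT1-/- (-0.23, adjusted p = 0.030). In ALG6/UGGT1/UGGT2-/- 2 of the 3 genes were higher and 1 was lower than in WT, beside 13.5% higher and 22% lower among all genes. The tag is removed in lysosomes by 2 acid phosphatases, a role known from mouse. In ALG6-/- 1 of them was higher and 1 lower than in WT, beside 15.1% and 45.7% of all genes. ACP2, which was lower, was at 26.4 CPM in WT, 11.2 CPM in ALG6-/- and 42.5 CPM in ALG6/UGGT1-/-. ACP2 fell by 1.21 in ALG6-/- (adjusted p = 5.0e-07) and rose by 0.68 in ALG6/UGGT1-/- (adjusted p = 0.00024), the same directions as GGA3.

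Of 19 tested genes of clathrin and the AP-1 adaptor, which works beside the GGA proteins, 5 were higher and 9 lower in ALG6-/- than in WT, with a median log2 fold change of -0.45 beside -0.44 for all genes, of which 15.1% were higher and 45.7% lower. Length- and GC-corrected, 8 were higher and 6 lower (median 0.0396), beside 32.7% higher and 28.9% lower among all genes (median 0.03). AP1G2, a gamma subunit of AP-1, fell by 0.52 in ALG6-/- (adjusted p = 0.00038), near the median of all genes (-0.44). Single genes of these lists are given as deposited only, without rescaling or correction. AP1S2, a sigma subunit, rose by 1.02 in ALG6/UGGT1/UGGT2-/- (adjusted p = 7.0e-05) and by 0.69 in ALG6/UGGT2-/- (adjusted p = 0.0041). Of 20 genes of retromer and retrieval, which return the receptors from endosomes, 5 were higher and 11 lower in ALG6-/-, with a median of -0.47, which the correction turned to 9 higher and 5 lower with a median of 0.26. RABEPK, an effector of RAB9 in that retrieval, was at 69.8 CPM in WT, 34.1 CPM in ALG6-/- and 24.96 CPM in ALG6/UGGT1/UGGT2-/-, a fall of 1.01 (adjusted p = 1.5e-05) and of 1.45 (adjusted p = 2.0e-06). SNX1, a sorting nexin, rose by 0.85 in ALG6/UGGT1/UGGT2-/- (adjusted p = 1.1e-05). In ALG6-/- it fell by 0.36 (adjusted p = 0.0036), which is less than the fall of the median of all genes (-0.44). Of 8 tested genes of other receptors and export from the ER, 1 was higher and 3 lower in ALG6-/- (median -0.20), and 4 were higher and 2 lower with the correction (median 0.41). CLN6, which helps to load lysosomal enzymes for export from the ER, fell by 0.78 in ALG6-/- (adjusted p = 3.8e-06) and rose by 0.54 in ALG6/UGGT1/UGGT2-/- (adjusted p = 0.00014). SORCS1, a relative of sortilin, was at 33.1 ± 11.7 CPM in WT and 8.37 ± 5.94 CPM in ALG6-/- (SD, n = 3), a fall of 2.09 (adjusted p = 0.0012).

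As deposited, the median of the cargo genes had the opposite sign to that of all genes in ALG6-/-. Of 38 lysosomal enzyme genes, 17 were higher and 6 lower than in WT, beside 15.1% higher and 45.7% lower among all genes, and the list's median was 0.31 against -0.44. Length- and GC-corrected, 28 of the 37 with a value were higher and 4 lower, with a median of 0.67 against 0.03 for all genes. Against ALG6-/-, 16 were lower and 9 higher in ALG6/UGGT1-/-, where 20.4% of all genes were lower and 53.1% higher. In ALG6/UGGT2-/- 18 were lower and 5 higher (18.8% and 48.6% of all genes), and in ALG6/UGGT1/UGGT2-/- 15 were lower and 7 higher (17.6% and 43.5%). CTSA, the carboxypeptidase cathepsin A, had the same directions as NAGPA: 21.0 CPM in WT, 44.3 CPM in ALG6-/-, 12.0 CPM in ALG6/UGGT1-/-, 17.0 CPM in ALG6/UGGT2-/- and 34.1 CPM in ALG6/UGGT1/UGGT2-/-. It rose by 1.06 in ALG6-/- (adjusted p = 4.5e-06) and fell by 0.78 in ALG6/UGGT1-/- (adjusted p = 0.00024). CTSZ, cathepsin Z, was at 5.23 to 5.71 CPM in WT, at 35.3 to 37.5 CPM in ALG6/UGGT1-/- and at 0 to 0.155 CPM in the other 9 libraries.

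**Figure D4:**
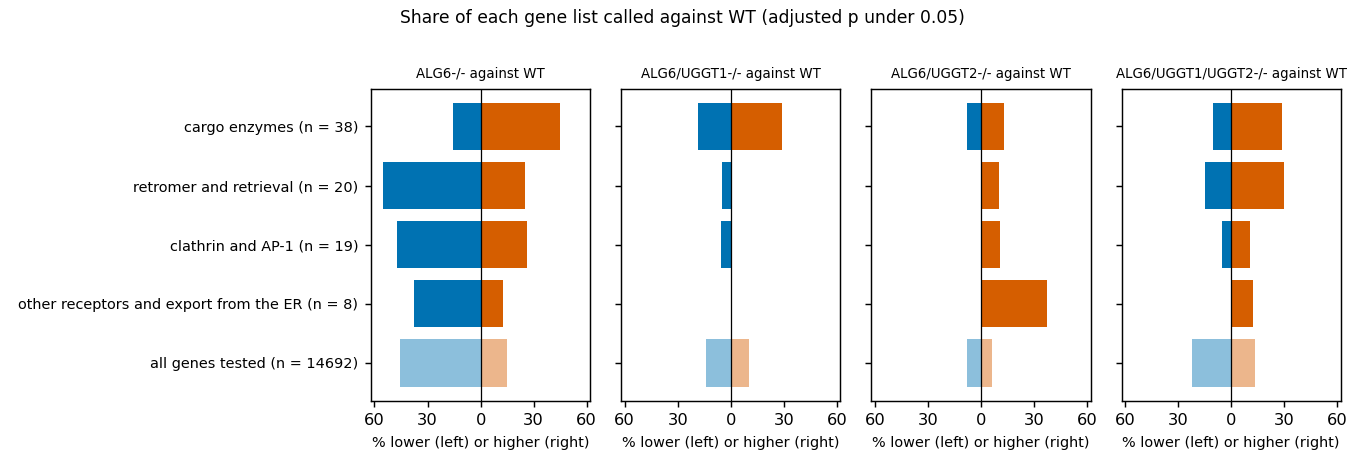
Share of each gene list (y axis) that was called lower (blue, left) or higher (orange, right) in each knockout line against WT (x axis, percent of the genes tested), with all genes tested in pale bars. In ALG6-/- more cargo enzymes are higher (17 of 38) than lower (6), and more genes are lower than higher in the clathrin, retromer and receptor lists, as among all genes. With the length and GC correction, not plotted, these 3 lists too had more genes higher than lower.

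Across the 15 libraries the genes whose log2 CPM ran most alike with GNPTAB were CBFB (Pearson r = 0.985), FNBP1L (0.975) and ZBTB18 (0.975). Among those most like IGF2R were UHRF1 (0.965) and FN1 (0.962), and those most like M6PR were UBE2T (0.903), HMOX1 (0.902) and ABLIM3 (0.9). Among the members, NAGPA and GGA3 had r = -0.893, GNPTG and IGF2R -0.914, and GNPTAB and SORT1 0.782. The 15 points share 5 lines, and the values share the scaling of each library, so these are descriptions with no test.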

How the data were processed

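RNA was taken from 15 cultures (5 lines, 3 biological replicates) and each library was sequenced on 4 lanes, deposited as 60 samples. The authors made poly(A) libraries with a directional kit (76-base paired reads), aligned them to hg38 with STAR, counted with RSEM and deposited CPM, normalised in edgeR, in 1 table with the lanes joined. Tool versions are not given in the sources used here, and 8 columns without headings were not used. Depth is given by the steps between low CPM values: 1 CPM was worth 23.6 to 27.2 reads, and 89.1 to 90.6% of values under 500 reads were whole multiples within 0.02. The lowest library values of the 9 genes stood for about 87 (NAGPA) to 2503 (M6PR) reads, so counting error weighs most on NAGPA.

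CPM were taken as log2(CPM + 0.5). A gene was kept where 3 or more libraries reached 1 CPM, and all kept genes were fitted in 1 limma model (version 3.58.1, R 4.3.3) of all 15 libraries with a mean-variance trend and 10 residual degrees of freedom. Fold changes of low genes are understated on this scale. P-values were adjusted by Benjamini-Hochberg over all genes, with a threshold of 0.05, and the model was tested on simulated data. P-values rest on the spread between replicate cultures within a line, pooled over all 5 lines, and not on a spread between clones. That spread was unequal, as for IGF2R with an SD of 47.4 CPM in WT and 4.05 CPM in ALG6/UGGT1/UGGT2-/-. Replicates of 3 against 3 cannot reach a p under 0.1 in an exact permutation test, so only the model was used. Alternatives were other pseudocounts, filters and scalings, fewer libraries, a replicate block and values corrected for the length and GC content of transcripts (GENCODE 44, splines with 5 degrees of freedom, 86.8% of genes). Means per kilobase use the canonical transcript.

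The members and lists were chosen with earlier results of these data known. Named genes were the 9 members, up to 2 of each list with the smallest F-test p and a mean of at least 5 CPM, the 3 genes most correlated with each of GNPTAB, M6PR and IGF2R (1 of them is not reported here), and the targeted genes. TCACGTGA and the other motifs were searched in RefSeq promoters.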

Additional observations from a re-analysis of the deposited data

Results flagged for a closer look

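The effect of losing UGGT2 differed between the lines with and without UGGT1 for 4 of the 9 genes, by the test of the difference itself in limma (adjusted p under 0.05, as for 66.9% of all genes, whose median difference was -0.60). NAGPA differed by 2.48 on the log2 scale (adjusted p = 8.4e-08), being lower with UGGT1 present and higher with UGGT1 absent in 3 of 3 libraries each. GGA3 differed by -1.75 (adjusted p = 3.7e-08), with the directions turned around. IGF2R differed by -1.09 (adjusted p = 0.0089), and by -0.50 (adjusted p = 0.056) with median ratio rescaling. GGA1 differed by -0.446 (adjusted p = 0.0028), and by 0.14 (adjusted p = 0.62) with that rescaling. All 4 differences use the ALG6-/- libraries, which stood apart in their median ratios, and the part of this in the differences was not tested.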

How the results depend on the processing

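Known limits are the low medians of the ALG6-/- libraries and WT replicate 3, and 1 clone per genotype. Calls were also lost where neither line was compared, as for GGA3 in ALG6/UGGT1/UGGT2-/- against ALG6/UGGT2-/- with median ratio rescaling (adjusted p = 0.28). That rescaling left 41 of 71 member results with the same sign and call, and the length and GC correction left 34. Omitting both WT replicate 3 and ALG6-/- replicate 2 left 60. The causes were not tested. Pseudocounts of 0.1 and 2 left 71 of 71 member results on the same side of the threshold, and no filter left 70 of 71. The replicate numbers did not pair the libraries (same-numbered deviations correlated from -0.75 to 0.745 over 30 pairs, median 0.0398). The fit with a replicate block called 3 members in ALG6-/- against WT, as without it, and changed no other call.

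Counts of members called moved as follows. Most stand here without the share of all genes called in the same fit, so they are not read as a property of the members. With median ratio rescaling 6 were called in ALG6-/- against WT, 0 in ALG6/UGGT2-/- against WT, 1 in ALG6/UGGT1/UGGT2-/- against WT and 1 in it against ALG6/UGGT2-/-. That rescaling moved the share of higher calls over all genes in ALG6-/- against WT from 24.9% to 52.1%. With only the lines compared, 0 were called in ALG6/UGGT1-/- against WT, 0 in ALG6/UGGT2-/- against WT and 4 in ALG6/UGGT1-/- against ALG6-/-. With the length and GC correction 7, 5 and 3 were called in ALG6-/-, ALG6/UGGT1-/- and ALG6/UGGT2-/- against WT, and 7 in the test of the difference between effects. Beside the first of these counts, 32.7% of all genes with a corrected value were higher and 28.9% lower. Without WT replicate 3 and ALG6-/- replicate 2, 2 were called in ALG6/UGGT2-/- against WT. With 1 library left out, counts ran from 3 to 6 (ALG6-/-; 5 without its replicate 1, 6 without WT replicate 3), 1 to 2 (ALG6/UGGT1-/-), 0 to 2 (ALG6/UGGT2-/-) and 4 to 4 (ALG6/UGGT1/UGGT2-/-) against WT, 4 to 7, 5 to 6 and 4 to 8 in the last 3 lines against ALG6-/-, 4 to 4 and 3 to 5 in ALG6/UGGT1/UGGT2-/- against ALG6/UGGT1-/- and ALG6/UGGT2-/-, and 4 to 6 in the difference between effects.

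Log2 fold changes that changed sign, among those past the threshold in at least 1 fit of all libraries, were these, and the cause was not tested. With median ratio rescaling, ALG6-/- against WT gave 0.27 (GNPTAB), 0.12 (IGF2R) and 0.44 (GGA1), ALG6/UGGT1-/- against ALG6-/- gave -0.46 (M6PR) and -0.32 (GGA1), ALG6/UGGT2-/- against ALG6-/- gave -0.29 (GNPTAB), -0.36 (M6PR), -0.34 (SORT1) and -0.17 (GGA1), ALG6/UGGT1/UGGT2-/- against ALG6-/- gave -0.0916 (M6PR), and the difference between effects gave 0.50 (GNPTAB) and 0.14 (GGA1). With the length and GC correction the same comparisons gave 0.63 (GNPTAB), 0.36 (IGF2R), 0.23 (SORT1) and 0.0851 (GGA1), then -0.49 (GNPTAB) and -0.49 (M6PR), then -0.75 (GNPTAB), -0.42 (M6PR) and -0.67 (SORT1), then -0.12 (M6PR), -0.21 (IGF2R) and -0.41 (SORT1), and 1.02 (GNPTAB). Without WT replicate 3 and ALG6-/- replicate 2, GNPTAB gave 0.14 in ALG6-/- against WT, -0.37 in ALG6/UGGT2-/- against ALG6-/- and 0.45 in the difference between effects, and SORT1 gave -0.13 in ALG6/UGGT2-/- against ALG6-/-. With 1 library left out, ALG6-/- against WT ran from -0.0944 to 0.0701 (GGA1), -0.56 to 0.36 (GNPTAB) and -0.0277 to 0.0573 (M6PR), ALG6/UGGT2-/- against ALG6-/- from -0.37 to 0.55 (GNPTAB) and -0.13 to 0.36 (SORT1), and the difference between effects from -0.47 to 0.45 (GNPTAB). The NAGPA and GGA3 calls in the 4 comparisons with ALG6-/- held under each alternative run.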
